A study of Mus musculus with 4 samples.

Results

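The 8 genes Gab1, Sfmbt2, Jade1, Slc38a4, Smoc1, Rbms1, Sall3 and Bbx, which maternal H3K27me3 imprints in the mouse embryo, were followed through 4 lists of H3K27me2 peaks from zygotes. They are 8 of 21755 protein-coding genes on chromosomes 1 to 19 and X. A peak was counted for a gene when it lay in the gene body or within 50 kb of it, or when the annotation of the list gave it that gene's Entrez identifier. By position, 43 peaks were found near the members, and 6 more were assigned to Sfmbt2 or Sall3 from farther away. No peak was counted for more than 1 member. Slc38a4 had none in any list.

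H3K27me2 was profiled by ULI-NChIP-seq, in which native chromatin of few cells is cut with MNase, precipitated with an antibody and sequenced. The PN5 zygotes, freed of polar bodies, came from in vitro fertilisation, with C57BL/6J eggs and sperm of PWK/PhJ males. Ezh2m+/p+ zygotes had Ezh2 fl/fl mothers, and Ezh2m-/p+ zygotes had Ezh2 fl/fl; Gdf9-Cre mothers, in which a Cre driven by the oocyte promoter Gdf9 removed an exon of Ezh2 before fertilisation. The sperm carried an intact Ezh2 allele in both groups, and the floxed allele was common to the mothers of both. Each genotype had 1 H3K27me2 library of pooled zygotes and 1 input library, so that differences between genotypes have no replicates behind them and are given without a test.

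The authors split the reads of each library into maternal (C57BL/6) and paternal (PWK) sets at strain variants and called peaks in each set against the input, which gave a maternal and a paternal list per genotype. The Ezh2m+/p+ lists held 5744 maternal and 17863 paternal peaks, and the Ezh2m-/p+ lists held 9606 and 22823. The fold given with each peak is the authors' ratio of H3K27me2 to input, and every listed peak has a fold over 5. The study gives read totals for whole libraries, with fewer reads for the Ezh2m-/p+ than for the Ezh2m+/p+ H3K27me2 library and likewise for the inputs, and the part of this depth in the peak numbers was not tested. The lists carry no read numbers by parental genome or peak, so the depth behind a single fold is not given directly. Its only trace is that folds recur at even steps. In the Ezh2m+/p+ paternal list, folds of 36.1, 48.1, 60.2 and 72.2 were held by 3350, 2541, 1666 and 1113 peaks. The number of reads behind these steps was not tested. A place without a listed peak is a place below the calling limits in that read set, not one shown to lack the mark. Each list is called by the genotype in its label. Its peak number carries the same name in the study's own statement of it, whereas the category shares that the study draws for the maternal genomes are those of the other genotype's list, so every direction between genotypes given here rests on the labels of the lists.

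In non-canonical imprinting, oocyte chromatin hands H3K27me3 to the embryo at loci that lack oocyte DNA methylation, and the maternal copy stays silent while the paternal copy is transcribed in the preimplantation embryo. Several of these genes, among them Sfmbt2, Gab1, Jade1, Smoc1 and Slc38a4, keep paternal expression in the placental lineage. H3K27me2 is the state below H3K27me3 on the same lysine, and EZH2 is a catalytic subunit of PRC2, the Polycomb complex that adds these methyl groups. By immunostaining, the study found H3K27me3 lost but H3K27me2 still normal in zygotes without maternal EZH2. It proposes that EZH1, the other catalytic subunit, partly stands in for EZH2 in forming H3K27me2.

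The sequences below show the ground that the listed peaks cover: the peaks at annotated promoters of Sfmbt2, Jade1 and Rbms1, the 1 maternal place that both genotypes shared, downstream of Gab1, and the peak of largest fold near a member in each list. Each is a stretch of 120 bases from the RefSeq GRCm38.p6 (mm10) reference, which is the C57BL/6J sequence, and the paternal PWK copy can differ from it. Each stretch is the centre of its peak, read 5′ to 3′ on the + strand, and capitals mark CG dinucleotides.
The maternal Sfmbt2 peak in the promoter 2 to 3 kb from an annotated start held 3 CG in its centre.
Sfmbt2, Ezh2m-/p+ maternal, chr2:10375640-10375759, + strand: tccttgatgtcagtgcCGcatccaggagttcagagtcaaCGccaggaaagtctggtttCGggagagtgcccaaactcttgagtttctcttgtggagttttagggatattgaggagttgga
The maternal Jade1 peak at the gene's first annotated start held 2.
Jade1, Ezh2m-/p+ maternal, chr3:41556540-41556659, + strand: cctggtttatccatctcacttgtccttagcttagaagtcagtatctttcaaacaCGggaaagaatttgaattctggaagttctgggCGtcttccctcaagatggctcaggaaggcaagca
The maternal Rbms1 peaks at internal annotated starts held 5 and 3.
Rbms1, Ezh2m-/p+ maternal, chr2:60782840-60782959, + strand: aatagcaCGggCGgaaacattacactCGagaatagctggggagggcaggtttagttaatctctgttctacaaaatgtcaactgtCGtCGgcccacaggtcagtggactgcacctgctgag
Rbms1, Ezh2m-/p+ maternal, chr2:60886340-60886459, + strand: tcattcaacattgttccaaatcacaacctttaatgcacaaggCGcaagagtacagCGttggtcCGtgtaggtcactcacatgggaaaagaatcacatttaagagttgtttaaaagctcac
The maternal place downstream of Gab1 that was listed in both genotypes held 0.
Gab1, Ezh2m-/p+ maternal, chr8:80759540-80759659, + strand: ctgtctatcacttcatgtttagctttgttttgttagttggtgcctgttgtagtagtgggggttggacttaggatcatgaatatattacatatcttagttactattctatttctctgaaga
The peaks of largest fold, at Rbms1 in the maternal lists, near Jade1 in the Ezh2m+/p+ paternal list and near Gab1 in the Ezh2m-/p+ paternal list, held 2, 0, 1 and 1.
Rbms1, Ezh2m+/p+ maternal, chr2:60774940-60775059, + strand: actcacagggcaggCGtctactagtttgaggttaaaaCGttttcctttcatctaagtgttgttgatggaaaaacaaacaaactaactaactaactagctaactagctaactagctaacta
Rbms1, Ezh2m-/p+ maternal, chr2:60912040-60912159, + strand: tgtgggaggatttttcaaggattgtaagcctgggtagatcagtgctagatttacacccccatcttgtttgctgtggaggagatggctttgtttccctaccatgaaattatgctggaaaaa
Jade1, Ezh2m+/p+ paternal, chr3:41645240-41645359, + strand: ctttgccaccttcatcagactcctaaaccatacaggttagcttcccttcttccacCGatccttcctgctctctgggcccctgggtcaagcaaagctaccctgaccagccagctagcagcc
Gab1, Ezh2m-/p+ paternal, chr8:80898940-80899059, + strand: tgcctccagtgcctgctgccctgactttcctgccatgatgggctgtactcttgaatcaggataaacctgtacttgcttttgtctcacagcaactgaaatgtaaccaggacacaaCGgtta

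The question for these genes was on which parental copy H3K27me2 peaks were listed and whether the places were the same with and without maternal EZH2. In the Ezh2m+/p+ maternal list, 4 of 8 members had a peak within 50 kb (Gab1, Sfmbt2, Rbms1 and Bbx), beside 28.2% of all protein-coding genes. The Ezh2m+/p+ paternal list also had 4 (Gab1, Jade1, Smoc1 and Sall3), beside 33.8%. In the Ezh2m-/p+ maternal list there were 5 (Gab1, Sfmbt2, Jade1, Smoc1 and Rbms1), beside 40.1%. The Ezh2m-/p+ paternal list had the same 4 members as the other paternal list, beside 38.6%. The members' shares therefore lay above those of all genes in each list, but the members are long. Their median length was 138 kb against 17.4 kb for all protein-coding genes, which gave median windows of 238 kb and 117 kb. By the annotation's own assignment, 5, 2, 6 and 2 members had a peak in the Ezh2m+/p+ maternal, Ezh2m+/p+ paternal, Ezh2m-/p+ maternal and Ezh2m-/p+ paternal lists. The same shares of all genes were 14.6%, 20.3%, 21.1% and 23.8%.

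**Figure D1:**
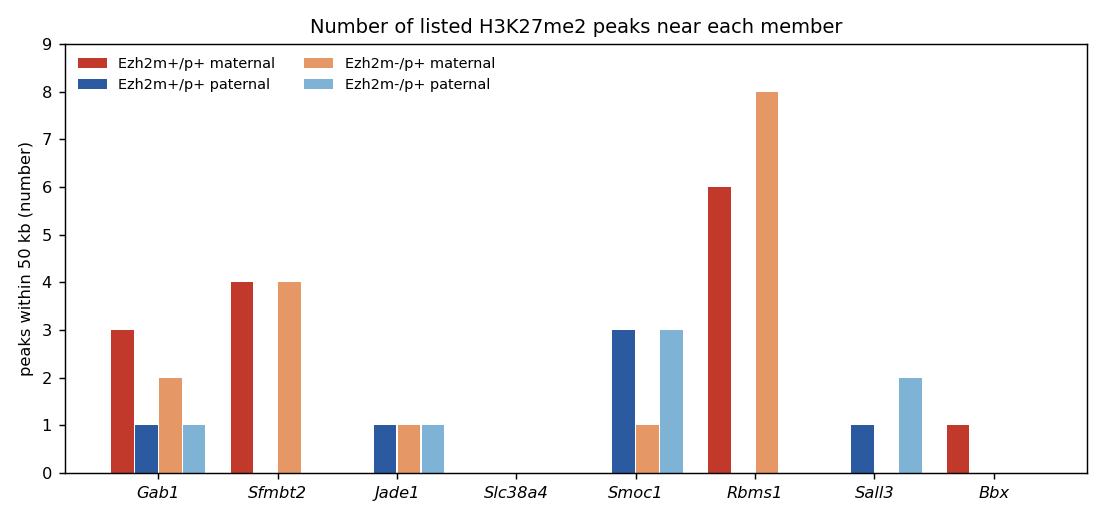
Number of listed H3K27me2 peaks within 50 kb of each gene (y axis) for the 8 genes (x axis), with 1 bar for each list. Rbms1 (6 and 8 peaks) and Sfmbt2 (4 and 4) had bars only from the maternal lists, Slc38a4 had none, and Smoc1 had 3 peaks in each paternal list. Each bar is a count from 1 library.

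Among all genes with a peak, peaks on 1 parental genome alone were more common than peaks on both in either genotype. In Ezh2m+/p+ zygotes 3 members had maternal peaks alone (19.6% of all genes), 3 paternal peaks alone (25.1%) and 1 both (8.66%). In Ezh2m-/p+ zygotes the numbers were 2 (26.4%), 1 (24.9%) and 3 (13.7%). Sfmbt2 and Rbms1 had maternal peaks in both genotypes and no paternal peak within 50 kb in either, while Sall3 had paternal peaks in both and no maternal peak within 50 kb. Gab1 had peaks in all 4 lists, which held for 4.95% of all genes. Jade1 and Smoc1 were in the paternal lists of both genotypes and in the maternal list of Ezh2m-/p+ zygotes alone. Bbx was in the Ezh2m+/p+ maternal list alone, and Slc38a4 belonged to the 27.2% of genes with no peak in any of the 4 lists. Paternal peaks in both genotypes were listed near 4 members (30.6% of all genes) and maternal peaks in both near 3 (18.4%).

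Counted per length, the windows of the 8 members, 1.9 Mb in all, were dense in maternal peaks, most of them at 2 genes, Rbms1 and Sfmbt2. The windows held 14 peaks of the Ezh2m+/p+ maternal list, or 7.38 per Mb (exact Poisson 95% interval 4.04 to 12.4, for counting error only), against 2.18 per Mb over the genome. In the Ezh2m-/p+ maternal list they held 16, or 8.44 per Mb (4.82 to 13.7), against 3.65. Of paternal peaks they held 7 in the Ezh2m-/p+ list, or 3.69 per Mb (1.48 to 7.60) against 8.67, and 6 in the Ezh2m+/p+ list, or 3.16 per Mb (1.16 to 6.89) against 6.78, where the interval includes the genome value. As ratios to the genome these were 3.38 and 2.31 for the maternal lists and 0.466 and 0.426 for the paternal lists. The intervals treat peaks as independent, and neighbouring peaks of 1 library are not.

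Without Rbms1, the maternal ratios were 2.32 (1.0 to 4.56) for Ezh2m+/p+ and 1.39 (0.598 to 2.73) for Ezh2m-/p+, and the paternal ratios 0.559 (0.205 to 1.22) and 0.510 (0.205 to 1.05). Without Rbms1 and Sfmbt2, which also lie far from any paternal peak, the maternal ratios were 1.46 (0.397 to 3.73) and 0.871 (0.237 to 2.23), and the paternal ratios 0.703 (0.258 to 1.53) and 0.642 (0.258 to 1.32). Each of these intervals but that of the first ratio, which begins at about 1.0, includes 1. The 2 genes were left out after the data were seen. They hold most of the maternal peaks and have no paternal peak nearby, so the maternal ratios had to fall and the paternal ones to rise. The intervals are therefore not read as a test of the other members. With all 8 members, against the merged windows of all protein-coding genes instead of the genome, the maternal ratios were 2.63 and 1.81 and the paternal ones 0.389 and 0.365, and against the members' own chromosomes they were 2.92 and 2.21, and 0.600 and 0.511. With all 8, maternal peaks covered 2.78% and 1.89% of the windows against 0.688% and 0.913% of the genome, and paternal peaks 0.474% and 0.696% against 1.62% and 2.54%.

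**Figure D2:**
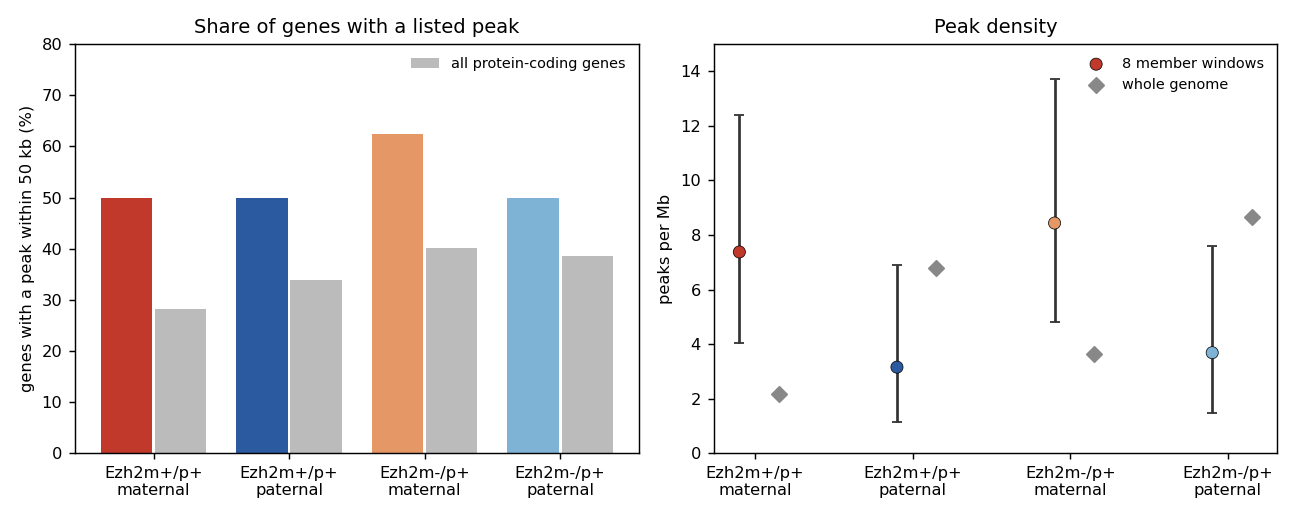
Left, percent of the 8 genes (coloured bars) and of all protein-coding genes (grey bars) with a listed peak within 50 kb, for each list. Right, peaks per Mb in the windows of the 8 genes (circles, with exact Poisson 95% intervals) and in the whole genome (diamonds), where the circles lie above the diamonds for the maternal lists (7.38 against 2.18 and 8.44 against 3.65) and below them for the paternal lists (3.16 against 6.78 and 3.69 against 8.67).

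Rbms1, which encodes a protein that binds single-stranded DNA and RNA, had the most peaks of any member. The gene spans 60750193 to 60963192 of chromosome 2 on the - strand. Of the Ezh2m+/p+ maternal peaks, 6 lay within 50 kb of it, a number reached by 0.308% of protein-coding genes, and of the Ezh2m-/p+ maternal peaks 8 did, reached by 0.455%. Per length of window, 2.17% and 2.93% of genes were as dense. The 2 sets of peaks interleaved along the gene without overlapping at any base.

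In the Ezh2m+/p+ list, 4 of the 6 Rbms1 peaks were intronic. The peak of largest fold, at chr2:60772801-60777199 in intron 6 of 13, had a fold of 79.1, higher than 99.5% of its list. The one at chr2:60835401-60837999 in intron 2 had 50.9, higher than 93.0%. The intron 1 peaks, at chr2:60942801-60946799 and chr2:60872201-60874199, were near the limit of listing, with folds of 5.70 and 5.03. The other two lay past the 3′ end, at chr2:60741201-60744399 with a fold of 13.4 and at chr2:60701201-60705599 with 7.87, the latter assigned to the integrin gene Itgb6.

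The Ezh2m-/p+ peaks at Rbms1 were 1399 to 2799 bp long, against 1999 to 4399 bp for the Ezh2m+/p+ ones, and their folds all lay between 22.2 and 46.7. The peaks in introns were at chr2:60911001-60913199 (fold 46.7, intron 1), chr2:60820801-60823199 (26.8, intron 2), chr2:60798201-60800999 (43.6, intron 2) and chr2:60793401-60794999 (25.2, intron 3). Those at internal start sites were at chr2:60885601-60887199 (30.6) and chr2:60781801-60783999 (24.5), both within 1 kb of a start. A further peak, at chr2:60967601-60969399 with a fold of 22.2, lay 4.41 kb upstream of the outermost start, and the last, at chr2:60737201-60738599 with 24.5, lay 11.6 kb past the 3′ end. Of the 9 annotated start sites of Rbms1, 5 had an Ezh2m-/p+ maternal peak within 3 kb and 0 had an Ezh2m+/p+ one. The 5 sites lay by only 2 peaks.

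No paternal peak was listed anywhere near Rbms1. The nearest was 8805 kb away in Ezh2m+/p+ zygotes and 8462 kb away in Ezh2m-/p+ zygotes. Only 1.83% and 1.19% of protein-coding genes were as far from a paternal peak, whose median distances were 158 and 121 kb.

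Sfmbt2, a Polycomb group protein with MBT repeats that is needed in the trophoblast, spans 10370510 to 10595253 of chromosome 2 on the + strand. It had 4 peaks in each maternal list, a number reached by 1.26% of genes in the Ezh2m+/p+ list and 3.55% in the Ezh2m-/p+ list. Its window is long, at 325 kb, and per length 6.64% and 13.3% of genes were as dense. The places differed between genotypes. In the Ezh2m+/p+ list 3 of the 4 lay at the 3′ end of the gene, in exon 18 of 23 (chr2:10568401-10572999, fold 20.4), in exon 21 (chr2:10578401-10586799, fold 7.20, the longest peak near any member at 8399 bp) and in the 3′ UTR (chr2:10590401-10593399, fold 5.53). The other was in exon 4 of a shorter transcript, at chr2:10401001-10404199, with a fold of 5.70. The count of the 3 peaks of the 3′ end depends on the gene model. The annotation places them in exons or the 3′ UTR but assigns them to the microRNA gene Mir669h inside Sfmbt2. With the longest transcript to which the lists assign a peak as Sfmbt2, a shorter one that ends before these 3, 1 Ezh2m+/p+ maternal peak was left within 50 kb (2 by assignment alone, the distant upstream one included).

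In the Ezh2m-/p+ list 3 of the 4 Sfmbt2 peaks lay at the 5′ end. These were the promoter peak at chr2:10375201-10376199 (fold 17.6), a peak that the annotation places in a 5′ UTR at chr2:10377601-10381599 (5.55) and one in intron 2 at chr2:10383801-10385599 (26.0). The 4th was 31.7 kb past the gene's end, at chr2:10627001-10630399, with a fold of 34.4. Far upstream, each maternal list had 1 more peak that the annotation gave to Sfmbt2, at 104 kb in the Ezh2m+/p+ list (fold 6.37) and at 66.9 kb in the Ezh2m-/p+ list (25.2). An intron of Sfmbt2 holds a large cluster of microRNA genes, 119 of them in GENCODE vM21, and none of these was touched by a peak of any list.

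The nearest paternal peaks to Sfmbt2 were 4246 kb and 4097 kb away, as far as for 6.91% and 6.03% of genes. Sfmbt2 and Rbms1 thus both lie on chromosome 2 in stretches without listed paternal peaks that reach several Mb. Whether these stretches lack strain variants or paternal reads was not tested.

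Gab1, a docking protein that relays signals of receptor tyrosine kinases, spans 80764438 to 80880519 of chromosome 8 on the - strand and was the only member with peaks in all 4 lists. Its maternal peaks lay in the gene and past its 3′ end, and its paternal peaks lay upstream. The 3 Ezh2m+/p+ maternal peaks were at chr8:80791801-80795599 in intron 2 of 10 (fold 59.0, higher than 96.8% of the list), at chr8:80863801-80866399 in intron 1 (5.86) and at chr8:80755401-80760799 downstream (7.71). The 2 Ezh2m-/p+ maternal peaks were at chr8:80846601-80850199 in intron 1 (5.55) and at chr8:80758401-80760799 downstream (23.7).

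The downstream pair, 3.64 kb past the end of Gab1 and assigned to the neighbouring chromatin remodeller gene Smarca5, was the only maternal place that overlapped between the genotypes. Both peaks ended at the same base, but they differ in length (5399 and 2399 bp), and under a reciprocal overlap of 50% the place was no longer shared. Upstream, a paternal peak started at the same base in both genotypes, 17.1 kb from the Gab1 start, at chr8:80897601-80898799 with a fold of 5.27 in the Ezh2m+/p+ list and at chr8:80897601-80900399 with a fold of 158 in the Ezh2m-/p+ list. The first value was higher than 0.420% and the second higher than 96.1% of the peaks in its list. The same values were shared by 167 and 193 peaks of their lists. The input reads behind each fold are not given, so the 2 ranks are not read as a change of the mark.

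Smoc1, a secreted calcium-binding protein of the extracellular matrix, spans 81026808 to 81186414 of chromosome 12 on the + strand. Its paternal peaks, 3 in each genotype, clustered between 113 and 143 kb from the start, in the 3′ part of the gene. In Ezh2m+/p+ zygotes they were at chr12:81146001-81147199 in intron 5 of 12 (fold 36.1), chr12:81159801-81161599 in intron 7 (9.03) and chr12:81168401-81169399 (42.1), and the annotation called the last a promoter peak because it began 2250 bp from the start of the microRNA gene Mir3067 inside Smoc1. In Ezh2m-/p+ zygotes they were at chr12:81140001-81141799 (94.6) and chr12:81142601-81143999 (63.0), both in intron 5, and chr12:81159201-81161599 in intron 7 (15.8). Only the intron 7 peaks overlapped, again with a common end.

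The 1 maternal peak of Smoc1, in intron 1 at chr12:81082801-81084799 with a fold of 27.5, was in the Ezh2m-/p+ list. The nearest Ezh2m+/p+ maternal peak was 635 kb away. The annotation assigned the intronic paternal peaks to Mir3067 and not to Smoc1, so that by assignment alone Smoc1 had no paternal peak.

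Jade1, a PHD-finger scaffold of the HBO1 histone acetyltransferase complex, spans 41555731 to 41616864 of chromosome 3 on the + strand. Its only maternal peak lay at the promoter in Ezh2m-/p+ zygotes, at chr3:41555801-41557399, starting 0.07 kb inside the gene, with a fold of 19.9. In Ezh2m+/p+ zygotes the nearest maternal peak was 549 kb away, a distance reached by 24.5% of genes. The paternal peaks lay in 1 shared place past the 3′ end, in an intron of the centriole gene Sclt1, at chr3:41644401-41646199 (fold 60.2) in the Ezh2m+/p+ list and chr3:41644601-41645999 (63.0) in the Ezh2m-/p+ list. Repeats made up 55.5% and 58.8% of them, the highest share among the members' peaks.

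Sall3, a zinc finger transcription factor of the spalt family, spans 80966376 to 80986771 of chromosome 18 on the - strand and is the shortest member at 20.4 kb. A paternal peak about 9 kb upstream of it was listed in both genotypes, at chr18:80995801-80997799 (fold 48.1) in the Ezh2m+/p+ list and at chr18:80995601-80997799 (13.8) in the Ezh2m-/p+ list. The Ezh2m-/p+ paternal list had 1 more, in exon 2 of 4 at chr18:80971801-80972999, with a fold of 94.6. This exonic peak had 51.7 CpG per kb and 59.5% GC, the highest of the members' peaks.

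No maternal peak lay within 50 kb of Sall3. The annotation assigned to it 1 Ezh2m+/p+ maternal peak 456 kb upstream (fold 5.36), 2 Ezh2m-/p+ maternal peaks 309 and 346 kb upstream (43.6 and 29.1) and 1 Ezh2m-/p+ paternal peak 176 kb upstream (63.0). Sall3 is thus a member with maternal peaks by assignment and without any by position.

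Bbx, an HMG-box transcription factor gene of 241 kb on the - strand of chromosome 16 (50191844 to 50432390), is the longest member and had 1 peak. It was in the Ezh2m+/p+ maternal list, 30.0 kb upstream at chr16:50462401-50463599, with a fold of 28.1. The nearest Ezh2m-/p+ maternal peak was 168 kb away, and the nearest paternal peaks were 677 and 678 kb away in the 2 genotypes.

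Slc38a4, an amino acid transporter gene of the placenta at 96994820 to 97055956 of chromosome 15 on the - strand, had no listed peak and no assigned peak in any list. The nearest maternal peaks were 338 and 422 kb away and the nearest paternal peaks 2006 and 2251 kb away. Distances as large were found for 34.0% and 21.3% of genes in the maternal lists and for 14.2% and 11.1% in the paternal lists, so that its position far from a peak was not rare.

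**Figure D3:**
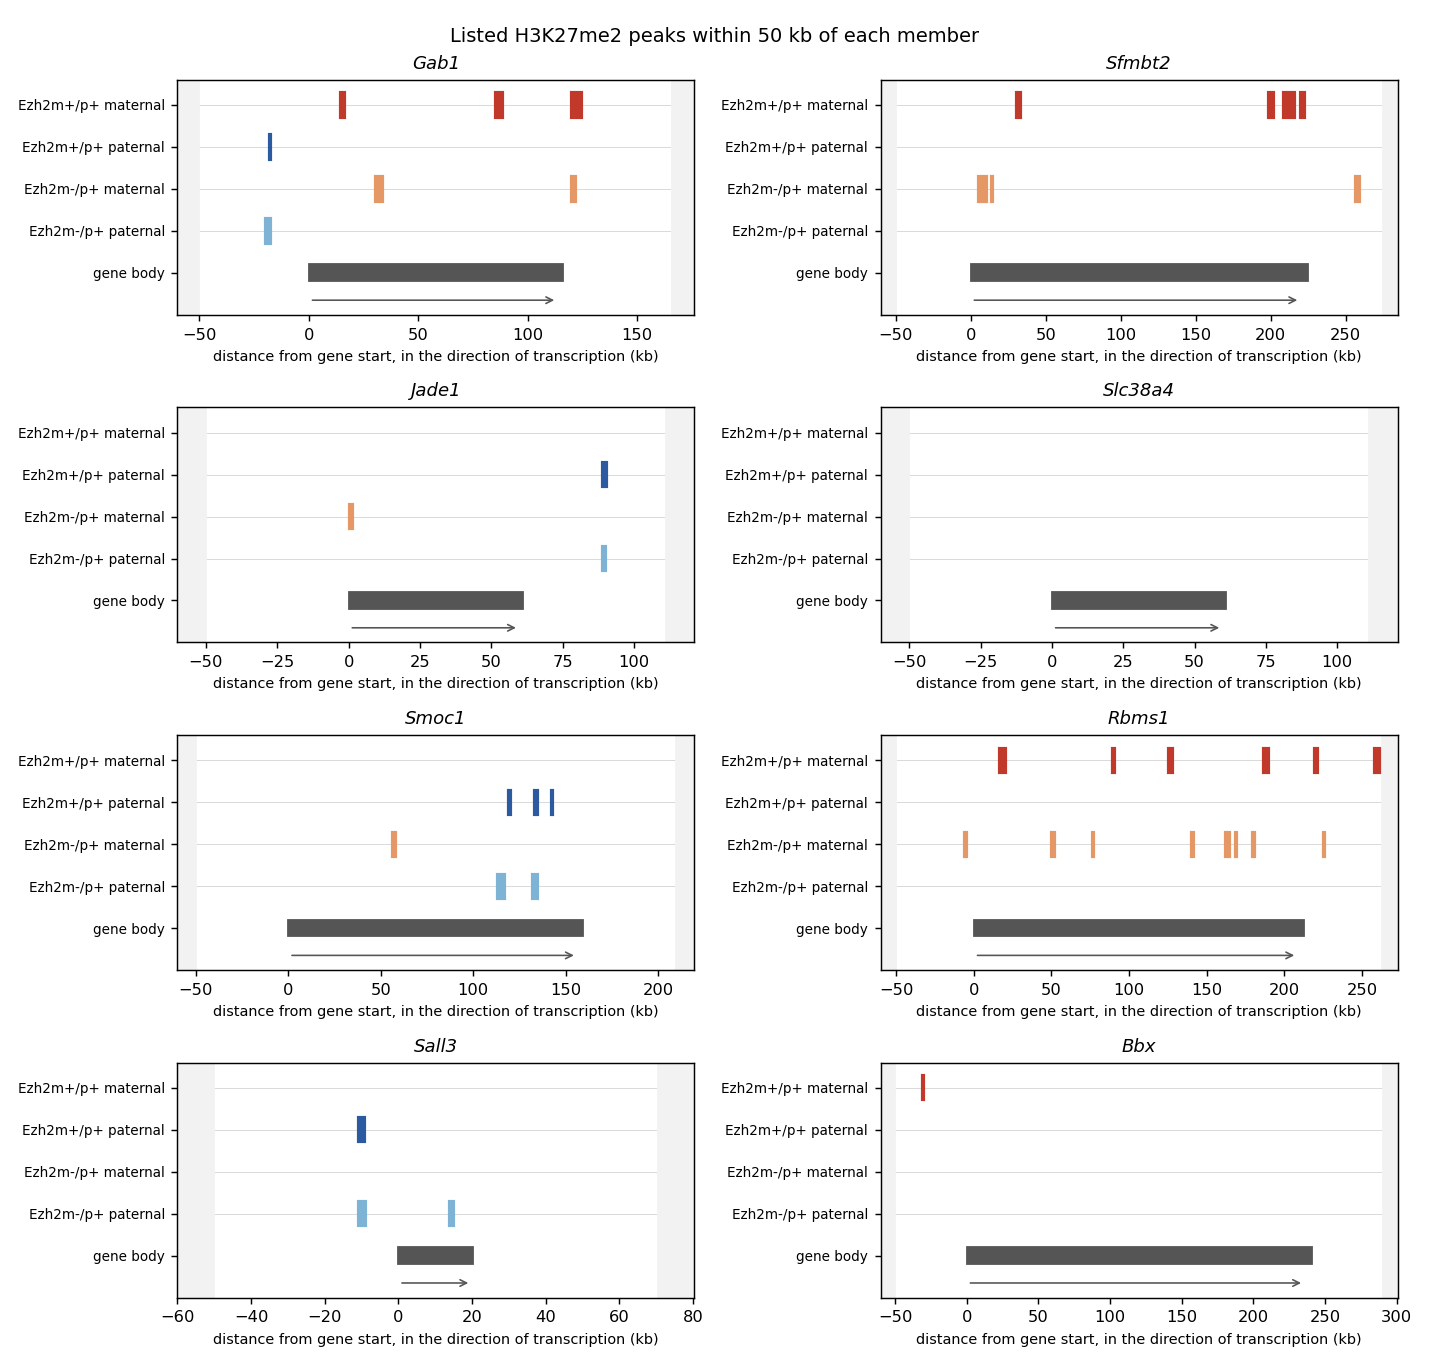
Listed H3K27me2 peaks (coloured boxes, 1 row for each list) along each gene (dark bar), by distance from the outermost annotated start in the direction of transcription (x axis, kb); the white area ends 50 kb beyond the gene on either side. Peaks of Rbms1 and Sfmbt2 lie only in the maternal rows and at different places in the 2 genotypes, whereas the paternal peaks of Gab1, Jade1, Smoc1 and Sall3 have a place in common between genotypes.

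The difference in shared places was that of the lists as a whole. Of the members' paternal peaks, 4 of 6 (66.7%) in the Ezh2m+/p+ list and 4 of 7 (57.1%) in the Ezh2m-/p+ list overlapped a peak of the other genotype by at least 1 bp, beside 66.1% and 45.7% of all paternal peaks. Each of the 4 members with a paternal peak had exactly 1 such place. Of the maternal peaks, 1 of 14 (7.14%) and 1 of 16 (6.25%) overlapped, beside 9.47% and 5.78% of all maternal peaks. No maternal peak of a member overlapped a paternal one in either genotype, and in the whole lists 0.418% and 0.416% of the maternal peaks did.

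Few of the peaks lay at promoters. Within 3 kb of an annotated start of a member, the Ezh2m+/p+ lists had no peak, maternal or paternal. The Ezh2m-/p+ maternal list had 1 at Sfmbt2, 1 at Jade1 and 2 at Rbms1, and the Ezh2m-/p+ paternal list had 1 at Sall3, the exon 2 peak. In all, 4 of the 16 Ezh2m-/p+ maternal peaks were annotated as promoter peaks (25.0%, beside 16.5% of the list) and 0 of the 14 Ezh2m+/p+ maternal peaks (beside 15.8%). In the paternal lists it was 1 of 6 in Ezh2m+/p+ zygotes (16.7%, beside 17.3%), the peak by Mir3067, and 0 of 7 in the Ezh2m-/p+ list (beside 16.9%). The numbers are small and untested, and no order of the genotypes is read from them.

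Folds near the members ran from 5.03 to 79.1 in the Ezh2m+/p+ maternal list, from 5.27 to 60.2 in the Ezh2m+/p+ paternal list, from 5.55 to 46.7 in the Ezh2m-/p+ maternal list and from 13.8 to 158 in the Ezh2m-/p+ paternal list. The median fold of the members' peaks was 7.79 in the Ezh2m+/p+ maternal list, 39.1 in the Ezh2m+/p+ paternal list, 24.9 in the Ezh2m-/p+ maternal list and 63.0 in the Ezh2m-/p+ paternal list. The medians of all peaks were 7.37, 36.1, 23.7 and 15.8. Near the members, folds under 10 were found for 8, 2, 2 and 0 peaks, and over the whole lists for 59.5%, 16.1%, 24.9% and 31.8%. Folds took few distinct values, between 180 and 957 in a list, and a single value such as 63.0, which Jade1, Smoc1 and Sall3 each had in the Ezh2m-/p+ paternal list, was shared by 2459 peaks there. Folds are therefore read as coarse steps. Values set side by side between lists, and ranks of a fold within a list, are not levels of the mark.

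**Figure D4:**
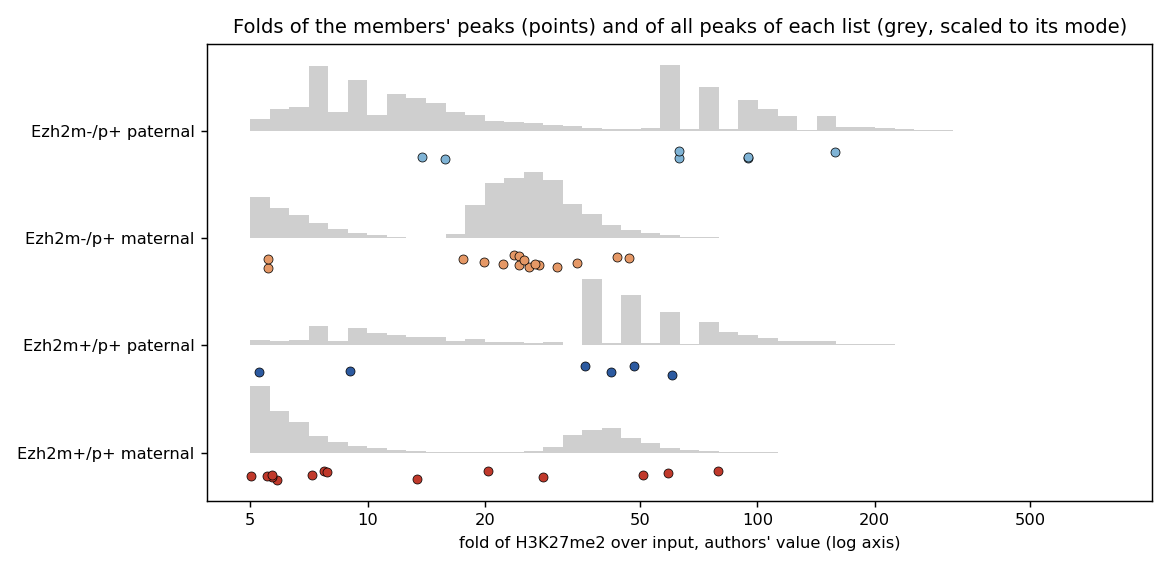
Fold of H3K27me2 over input as the authors' peak caller gave it (x axis, log scale) for the peaks within 50 kb of the 8 genes (points, shifted vertically at random) and for all peaks of each list (grey histograms, each scaled to its own highest bin). The points cover both humps of the maternal lists, with 8 of 14 Ezh2m+/p+ maternal folds under 10 and 2 of 16 in Ezh2m-/p+ zygotes.

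In sequence, the members' peaks were ordinary for their lists in GC content, and their median CpG density was somewhat higher in 3 of the lists. Median GC content was 44.8% and 44.0% in the Ezh2m+/p+ and Ezh2m-/p+ maternal peaks (45.5% and 45.6% for all peaks of those lists), and 46.2% and 46.5% in the paternal peaks (44.7% and 44.0%). Median CpG density was 11.7 and 11.8 per kb in the maternal peaks beside 9.23 and 9.29, and 7.37 and 11.4 per kb in the paternal peaks beside 8.70 and 8.19. Among maternal peaks the Ezh2m-/p+ promoter peak of Sfmbt2, whose sequence is given above, was the richest with 31.0 CpG per kb. The median share of repeats was 18.6% and 17.0% for maternal peaks, and 23.2% and 17.5% for paternal peaks, beside 20.3% and 19.3%, and 20.9% and 21.5%, in the lists. In length the members' maternal peaks had medians of 3499 bp in the Ezh2m+/p+ list and 2099 bp in the Ezh2m-/p+ list, beside 2999 and 2199 bp, and the paternal peaks 1499 and 1799 bp, beside 1799 and 1999 bp.

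**Figure D5:**
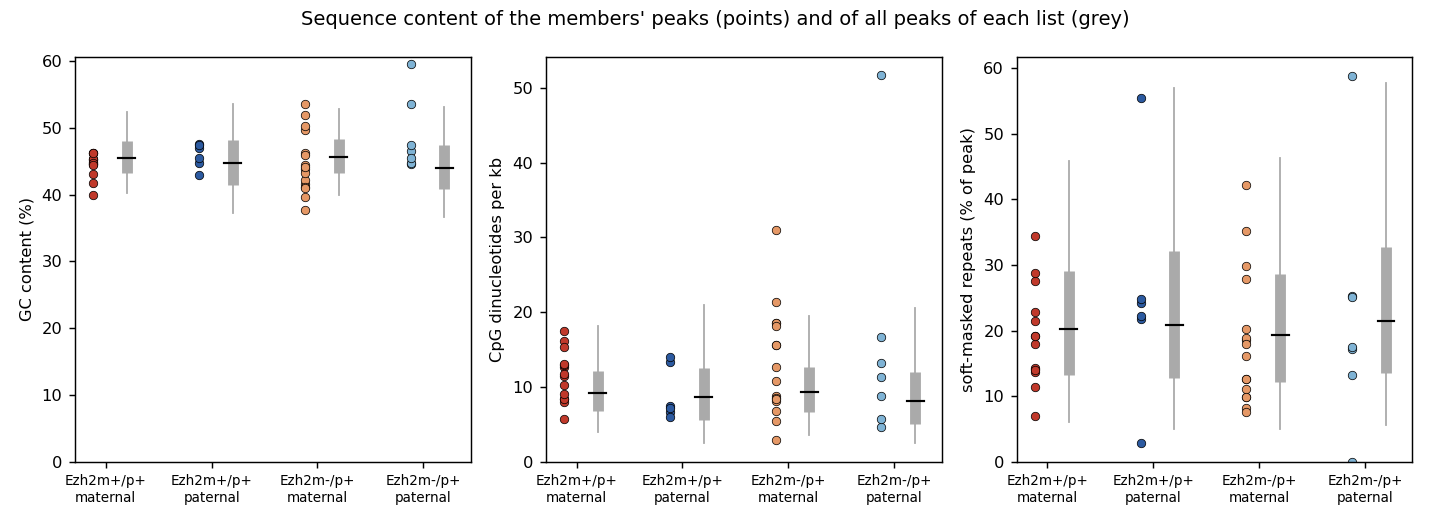
GC content, CpG dinucleotides per kb and share of repeats (y axes) of the peaks within 50 kb of the 8 genes (points) for each list (x axis), beside all peaks of the list (grey: thick bar, middle 50% of peaks; thin line, 5th to 95th percentile; black tick, median). Most points lie within the grey ranges, and the point at 51.7 CpG per kb is the paternal Sall3 exon peak.

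Imprinted genes of the canonical kind, which carry a germline DNA methylation mark or belong to a domain that does, were counted in the same way. Of 22 such genes, 9, 9, 12 and 8 had a peak within 50 kb in the Ezh2m+/p+ maternal, Ezh2m+/p+ paternal, Ezh2m-/p+ maternal and Ezh2m-/p+ paternal lists, or 40.9%, 40.9%, 54.5% and 36.4%. The members' shares, at 4, 4, 5 and 4 of 8, were higher by about 1 gene. Without H13 and Mcts2, whose windows overlap, the canonical counts were 9, 7, 12 and 6 of 20 genes. Per length, with overlapping windows merged and each peak counted once, the canonical genes had 3.94, 5.25, 9.19 and 4.27 peaks per Mb, beside 7.38, 3.16, 8.44 and 3.69 for the members. One locus weighed on the paternal values, since H13 and Mcts2, which lies inside it, share 4 Ezh2m+/p+ and 7 Ezh2m-/p+ paternal peaks. Without these 2 genes the densities were 4.13, 4.13, 9.63 and 2.06 per Mb, so that the order of the Ezh2m-/p+ paternal densities turned. The members' densities rest likewise on Rbms1 and Sfmbt2. Without those, the members' ratios to the genome were 1.46 (Ezh2m+/p+) and 0.871 (Ezh2m-/p+) for maternal peaks, and 0.703 and 0.642 for paternal peaks. No order of the members and the canonical genes is therefore read from the densities. Among the canonical genes, Grb10 and Inpp5f had peaks in all 4 lists, as Gab1 did here. Xist, which maternal H3K27me3 also silences, had no peak within 50 kb in any list.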

How the data were processed

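H3K27me2 and input were sequenced from PN5 zygotes of both genotypes, 1 library of each kind per genotype. The authors trimmed reads with Trimmomatic (0.38 in the submitters' processing notes), aligned them to mm10 with Bowtie2, filtered with SAMtools, removed duplicates with Picard, split them by strain with SNPsplit and called peaks with SICER against the input. The deposited lists hold peaks kept above limits that the authors set at 1000 bp and a fold of 5 (the shortest are written as 999 bp, since ends are 1 bp short of the caller's 200 bp steps), with the peak caller's ratio (fold) of H3K27me2 to input and ChIPseeker's annotation. The deposited table of coverage per chromosome gives no value for single genes and was not used.

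Peaks were taken as listed. Gene bodies were the union of a gene's transcripts in GENCODE vM21 (GRCm38), and the Entrez identifiers of all 8 members matched. Peaks per Mb used chromosomes 1 to 19 and X. All members and every peak of theirs were named, by a rule that also fixed the comparison lists and the peaks whose sequence is shown. Members and lists were chosen with earlier results of these data known. Alternatives were another flank, fold, length, transcript, way of assignment or overlap. The tools were pandas 2.3.3, numpy 2.4.6 and scipy 1.17.1 under Python 3.11.15, with matplotlib 3.10.9 for figures, and counting and overlap were tested on simulated data. With 1 library per genotype no test was made, and intervals cover counting error only.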

Additional observations from a re-analysis of the deposited data

How the results depend on the processing

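Counts near 8 genes move with small changes of the rule. With the gene body alone, 1 member had an Ezh2m+/p+ paternal peak (3 peaks) and 2 had an Ezh2m-/p+ paternal peak (4 peaks), and within 10 kb 2 members had one in either paternal list. By assignment alone, 2 members were left in each paternal list, with 2 peaks for Ezh2m+/p+ and 4 for Ezh2m-/p+, and no density could be computed, since an assignment has no window. With a fold over 10, the Ezh2m+/p+ maternal list had 6 peaks near the members and 3 assigned members, and the Ezh2m+/p+ paternal list had 1 assigned member. With lengths over 2000 bp, the Ezh2m+/p+ paternal list had 0 members, 0 peaks, 0 assigned members and a density ratio of 0, the Ezh2m-/p+ maternal list 3 members and 8 peaks, and the Ezh2m-/p+ paternal list 3 peaks. Under a reciprocal overlap of 50%, 0 maternal peaks of either genotype overlapped the other genotype, the place downstream of Gab1 included. Without Rbms1 and Sfmbt2 the maternal density ratios were 1.46 for Ezh2m+/p+ and 0.871 for Ezh2m-/p+. The other 88 values for whole lists kept to within 1.5 times the count or inside the counting interval. A flank of 100 kb and another transcript model were among them, although that model cut the Ezh2m+/p+ maternal peaks near Sfmbt2 from 4 to 1. The counting interval is wide, and a ratio that kept by this rule can have an interval that includes 1. Without Rbms1 this held for the Ezh2m-/p+ ratios, maternal 1.39 (0.598 to 2.73) and paternal 0.510 (0.205 to 1.05). The densities without Rbms1, without Rbms1 and Sfmbt2, on the members' own chromosomes and over the windows of all genes, and that of the canonical genes without H13 and Mcts2, were added after the data were seen. No paired analysis was possible because each genotype has 1 library. For the same reason no replicate could be left out. Read depth per parental genome is not in the lists and limits every absence of a peak.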

Other observations

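The genes for the enzymes that write or remove H3K27 methylation, and their partners, were counted by the same rule. Of 16 such genes, 4 had a peak within 50 kb in the Ezh2m+/p+ maternal list, 3 in the Ezh2m+/p+ paternal list, 6 in the Ezh2m-/p+ maternal list and 3 in the Ezh2m-/p+ paternal list, or 25.0%, 18.8%, 37.5% and 18.8%, beside 28.2%, 33.8%, 40.1% and 38.6% of all protein-coding genes. Ezh2 and Eed, a catalytic and a core subunit of PRC2, had none in any list. The same held for Rbbp7, Jarid2, Mtf2, Phf1 and Kdm6a, and for 27.2% of all protein-coding genes. Ezh1, the other catalytic subunit, was near 2 maternal peaks of Ezh2m+/p+ zygotes, near 3 of Ezh2m-/p+ zygotes and near no paternal one. Ehmt1, a methyltransferase best known for H3K9, had 4 peaks, all in the Ezh2m-/p+ maternal list. Epop, a PRC2 partner, had peaks in all 4 lists.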
